A study of Mus musculus with 24 samples.

Results

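The mitosis genes described here are 36 genes whose products enter cells into mitosis, build the spindle, attach and separate the chromosomes, or divide the cell. They were chosen by gene symbol, and where a gene had several array probe sets the one of the largest spread over the arrays was used. A value was obtained for 34 of the 36, out of 17097 genes in all, and 18 of the 34 had more than 1 probe set. Ccnb1 and Nuf2 were not analysed here. The 34 genes lie on 14 chromosomes, with 7 on chromosome 2 and none on chromosome 19.

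Gene expression was measured on 24 Affymetrix arrays of mouse B-cell leukaemia, 8 of a cell line and 16 of primary tumours. BKO408 is a line of pre-B-cell acute lymphoblastic leukaemia (preB-ALL) that arose in a mouse without Blnk, the adaptor protein that carries the signal of the pre-B-cell receptor, and it was grown in 10% serum with IL-7 at 5 ng/ml. BKO408 LAP cells (n = 4) had been transduced with a LAP retrovirus, LAP being the transactivating isoform of C/EBPβ (gene Cebpb), and BKO408 cells (n = 4) were the control, so that all cells of the line lacked Blnk. The tumours were 4 B-ALL of mice with a Cebpb LAP transgene (LAP B-ALL), 3 preB-ALL of mice with the LAP transgene and no Blnk (LAP/Blnk tumours), 4 preB-ALL of mice with the LAP transgene (LAP preB-ALL) and 5 preB-ALL of mice without Blnk (Blnk tumours). No treatment was given. The promoter of the transgene, the age, sex and strain of the mice, the tissue sampled, any control virus in the cell line and the clonality of the line are not stated in the labels. Nothing there says that replicates were separate cultures or animals, so the p-values reflect sample-to-sample spread that may be technical.

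Most of these genes are transcribed late in the cell cycle, in G2 and mitosis, and their summed expression is widely used as a sign of how many cells of a tissue are dividing. In resting cells they are held down by the DREAM complex, which binds a short element called CHR near the start of transcription, and in dividing cells B-Myb and Foxm1 drive them, often together with NF-Y at CCAAT boxes. C/EBPβ is known in several tissues as a factor of differentiation that can slow division, and in others as one that supports proliferation. Pre-B cells divide in response to IL-7 and to the pre-B-cell receptor.

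The stretches around the transcription start are shown because the CHR and CCAAT letters, known as elements of cell-cycle promoters, can be looked for there. They are from RefSeq on the build GRCm38.p6 and run 5′ to 3′ from 100 bases before to 25 bases from the start that RefSeq's table uses, and the capitals mark the CHR letters (TTTGAA or TTCGAA, on either strand) and the CCAAT letters (on either strand). Cenpa, Cdc20 and Kif23 had the largest called rise of their role in LAP cells and CHR letters within the stretch, whereas the CHR letters of Aurka begin 32 bases after the start and its stretch is not shown, and Top2a, which fell most, was chosen after its values were seen.
Cenpa, chr5:30666786-30666910, plus strand: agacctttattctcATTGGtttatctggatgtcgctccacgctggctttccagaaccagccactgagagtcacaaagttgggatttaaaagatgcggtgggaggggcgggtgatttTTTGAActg
Cdc20, chr4:118437319-118437443, minus strand: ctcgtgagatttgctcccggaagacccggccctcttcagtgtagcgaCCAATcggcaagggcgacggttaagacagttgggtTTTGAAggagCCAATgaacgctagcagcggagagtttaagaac
Kif23, chr9:61946775-61946899, minus strand: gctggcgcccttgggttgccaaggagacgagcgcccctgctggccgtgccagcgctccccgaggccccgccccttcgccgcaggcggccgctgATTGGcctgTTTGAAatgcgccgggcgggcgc
Top2a, chr11:99024165-99024289, minus strand: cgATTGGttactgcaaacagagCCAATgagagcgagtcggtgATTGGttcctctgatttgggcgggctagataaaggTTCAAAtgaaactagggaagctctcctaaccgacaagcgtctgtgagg
The table held 30 of the 36 genes, and the 6 without an entry were Ccna2, Cdc25c, Aurkb, Tpx2, Kif20a and Foxm1. Within 250 bases before to 50 after the start, CHR letters stood in 24 of the 30 genes (80%), against 21.7% of all 27025 genes there. In 22 of the genes they lay within 40 bases of the start, against 4.54% of all windows. CCAAT letters were present in 23 genes (76.7%), against 41.1% of all genes, and CHR and CCAAT together in 21 (70%), against 8.61%. In no gene did the CHR and CCAAT letters overlap. The C/EBP-type letters TTGCNNAA, read on both strands, were in 0 of the 30 genes, against 12.2% of all genes. These are counts of letters and show neither binding nor a cause.

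The values are log ratios, taken as log2 though no source used here names their base, and each probe set was centred by the depositors on the median of the cell-line arrays and, separately, of the tumours. A value of 0 is therefore the middle array of its own set. No level remains, so genes cannot be ranked by abundance and the cell line cannot be set against the tumours. A gene was called higher or lower where limma's adjusted p, over all 17097 genes, was 0.05 or less. Where groups are said not to overlap, this only describes the values of the named genes. How many of all genes did not overlap was not counted, so it is no support beyond the test.

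The labels were checked with Cebpb and with markers of pre-B and other blood cells. The Cebpb probe set of the largest spread read 0.14 to 0.9 in the tumours labelled LAP B-ALL 1 to 3, −3.11 in the tumour labelled LAP B-ALL 4, −0.03 to 0.51 in LAP/Blnk tumours, 0.03, −1.41, 0.05 and 0.19 in LAP preB-ALL 1 to 4, and −4.5 to −1.94 in Blnk tumours. In the cell line the same probe set averaged 0.15 ± 0.06 (SE) higher with LAP (adjusted p = 0.0855), and where it lies relative to the viral or transgenic sequence is not given, so it is no firm check. Other Cebpb probe sets did not separate LAP from Blnk tumours in this way. An alternative read 0.41, −1.28 and −1.18 in LAP/Blnk 1 to 3, within its range of −1.38 to 1.38 in Blnk tumours. Another spanned only −0.37 to 0.51 over all tumours, with the groups mixed. The Blnk probe set averaged 0.72 ± 0.45 in LAP/Blnk and −0.2 ± 0.66 in Blnk tumours, both labelled as lacking the gene, against 0.23 ± 0.77 in LAP B-ALL and 0.35 ± 0.74 in LAP preB-ALL, which are not (SD, n = 3, 5, 4 and 4). It was thus highest in a group labelled Blnk-deficient, with no difference called between tumour groups. In the cell line the Blnk probe set was called lower with LAP (−0.1 ± 0.03, SE, adjusted p = 0.0201), though all these cells are said to lack Blnk. Whether this probe set lies in the deleted part is not given, so the absence of Blnk rests on the labels. Vpreb1, a surrogate light chain of the pre-B-cell receptor, stood between −8.97 and −8.49 in 5 tumours, namely LAP B-ALL 1 to 3 and LAP preB-ALL 2 and 4, and between −0.45 and 0.35 in the other 11. Where high Vpreb1 is taken to go with preB-ALL and low Vpreb1 with B-ALL, it went against the label in 3 tumours. The labels themselves state no Vpreb1 level, and low Vpreb1 in B-ALL is read from LAP B-ALL 1 to 3 in these same data. Vpreb1 was high in the tumour labelled LAP B-ALL 4 (0.14, with Rag1 at 2.0) and low in those labelled LAP preB-ALL 2 (−8.49, with Rag1 at −6.24) and LAP preB-ALL 4 (−8.89, with Rag1 at −5.66). The 10 of 12 B-lineage markers with a value had a median of −3.38 to −2.89 in LAP B-ALL 1 to 3 and of 0.71 in the tumour labelled LAP B-ALL 4. In LAP preB-ALL 1 to 4 it was −0.22, −2.13, −0.25 and −3.85, while Cd79a stayed between −0.59 and 0.65 in all 16 tumours. The 6 of 10 erythroid markers with a value had a median of 5.08, 5.14 and 5.98 in LAP B-ALL 1 to 3 and of 5.31 in LAP preB-ALL 4, against −0.59 to 0.79 in the other 12 tumours. The called tumour results that rest on LAP B-ALL or LAP preB-ALL are given with and without these tumours.

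In BKO408 cells the mitosis genes did not move as a block. With LAP 9 of the 34 rose and 11 fell, 58.8% in all, against 22.3% of all genes called (10.5% higher and 11.8% lower). The median difference over the 34 was −0.05, beside −0.01 over all genes. The changes were small, from 1.06-fold to 1.33-fold. The largest called rises were Kif23, Aurka, Cenpa and Cdc20 and the largest called falls Top2a, Cdc25b, Foxm1 and Ttk. The plot of differences shows them by role.

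**Figure D1:**
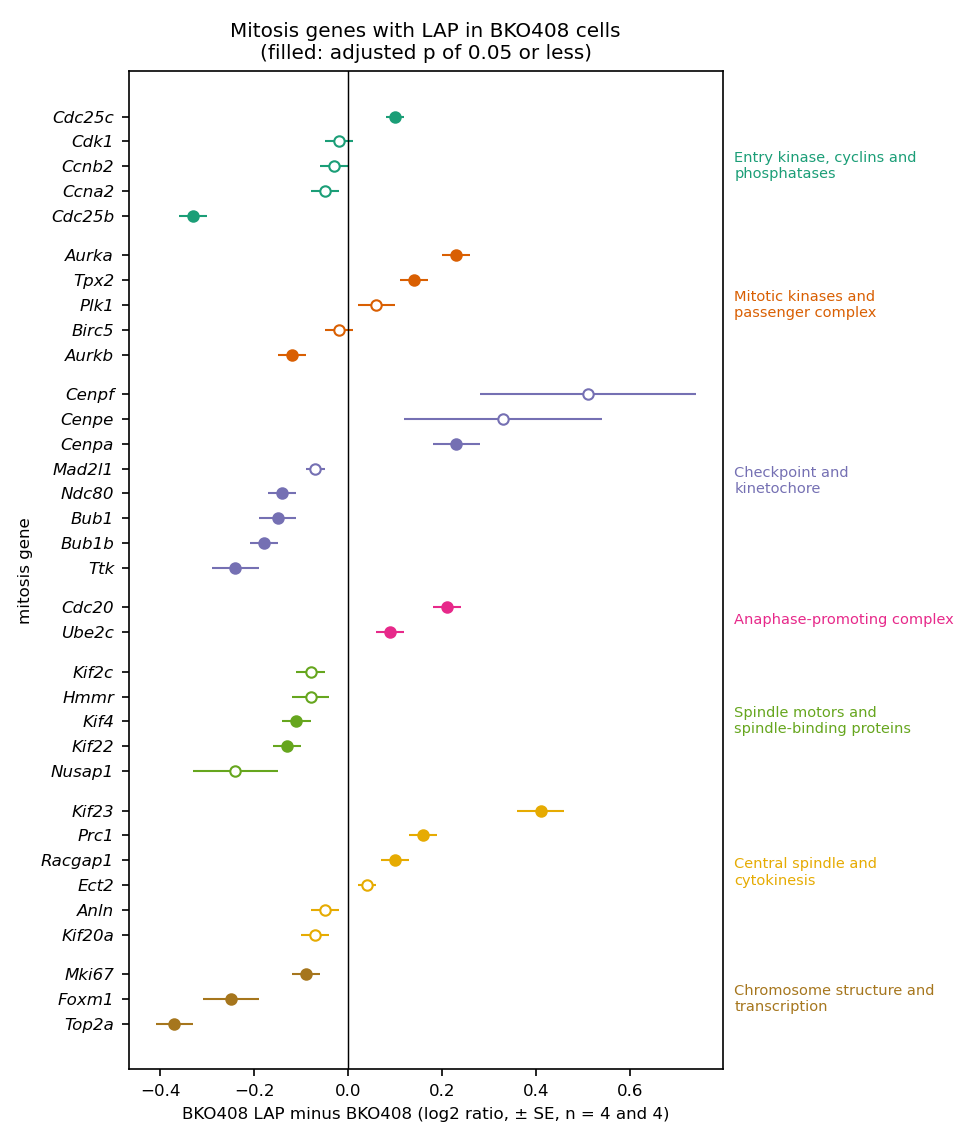
Difference between BKO408 LAP and BKO408 cells for each of the 34 mitosis genes, in log2 ratio on the horizontal axis, with the SE of limma's moderated fit as bars (n = 4 and 4), grouped and coloured by role. Filled points had an adjusted p of 0.05 or less; 9 lie right of 0 and 11 left of it, with Kif23 at 0.41 and Top2a at −0.37 as the outermost filled points.

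Of the 5 genes of mitotic entry, 1 rose and 1 fell. Cdc25b, a phosphatase that removes inhibitory phosphates from Cdk1, read −0.18, −0.18, −0.14 and −0.13 in LAP cells, against 0.23, 0.13, 0.16 and 0.18 in control cells. All 4 LAP arrays lay below all control arrays, with a difference of −0.33 ± 0.03 (SE, adjusted p = 5.62e-05). Its relative Cdc25c rose by 0.1 ± 0.02 (adjusted p = 0.0152). Cdk1, the kinase that drives entry, and its cyclins Ccna2 and Ccnb2 differed by −0.02, −0.05 and −0.03 and did not pass the test.

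Among the mitotic kinases and their partners, 2 of 5 rose and 1 fell. Aurka, the kinase of the spindle poles, read 0.12, 0.1, 0.1 and 0.1 in LAP cells, against −0.1, −0.18, −0.13 and −0.12 in control cells, a rise of 0.23 ± 0.03 (adjusted p = 0.000251). Tpx2, which brings Aurka to spindle microtubules and activates it, rose by 0.14 ± 0.03 (adjusted p = 0.0135). Aurkb, the kinase of the chromosomal passenger complex, was lower by −0.12 ± 0.03 on the log2 scale (adjusted p = 0.0259). Its partner Birc5 (survivin) differed by −0.02, and Plk1, which acts from centrosome maturation to cytokinesis, by 0.06; neither passed.

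At the checkpoint and the kinetochore, 1 of 8 genes rose and 4 fell. Ttk, the kinase that starts the spindle checkpoint, read −0.19, −0.07, −0.22 and −0.04 in LAP cells, against 0.15, 0.13, 0.04 and 0.1 in control cells. The groups did not overlap, and the difference was −0.24 ± 0.05 (adjusted p = 0.00488). Bub1b, the checkpoint protein that holds Cdc20, read −0.07, −0.07, −0.08 and −0.11 in LAP cells, against 0.1, 0.07, 0.11 and 0.12 in control cells, a difference of −0.18 ± 0.03 (adjusted p = 0.000767). Bub1, a kinetochore kinase, differed by −0.15 ± 0.04 (adjusted p = 0.0376) and Ndc80, which binds microtubules at the kinetochore, by −0.14 ± 0.03 (adjusted p = 0.00373). Cenpa, the histone that marks centromeres, went the other way and read 0.1, 0.12, 0.04 and 0.14 in LAP cells, against −0.27, −0.08, −0.04 and −0.13 in control cells, a rise of 0.23 ± 0.05 (adjusted p = 0.00882). Mad2l1, a checkpoint protein, just missed the test at −0.07 ± 0.02 (adjusted p = 0.0517).

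Cenpf and Cenpe had large differences that were not called. Cenpf, a kinetochore protein of G2 and mitosis, read −0.13, 0.23, 0.1 and 0.03 in LAP cells, against −1.12, −0.01, 0.01 and −0.68 in control cells (0.51 ± 0.23, adjusted p = 0.159). Cenpe, the kinesin that moves chromosomes to the spindle equator, read −0.04, 0.22, 0.04 and −0.12 in LAP cells, against −0.91, 0.13, 0.09 and −0.53 in control cells (0.33 ± 0.21, adjusted p = 0.329). In each gene, control arrays 1 and 4 lay low and control arrays 2 and 3 lay within or beside the LAP values. Other probe sets of the genes gave differences of 0.09 and 0.03 for Cenpf and of −0.01 for Cenpe. Without control arrays 1 and 4, an alternative added after the data were seen, 7 genes were called higher and 7 lower, beside 17.7% of all genes.

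Both genes of the anaphase-promoting complex rose. Cdc20, which activates the complex and so starts the separation of sister chromatids, read 0.09, 0.09, 0.13 and 0.12 in LAP cells, against −0.09, −0.12, −0.12 and −0.09 in control cells. The difference was 0.21 ± 0.03 (adjusted p = 0.000283), with no overlap. Ube2c, the ubiquitin-conjugating enzyme of the complex, rose by 0.09 ± 0.03 (adjusted p = 0.0276).

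Of the 6 genes of the central spindle and cytokinesis, 3 rose and none fell. Kif23, the kinesin of centralspindlin, read 0.17, 0.26, 0.13 and 0.16 in LAP cells, against −0.37, −0.24, −0.13 and −0.16 in control cells. It was the largest called difference of the 34, 0.41 ± 0.05 or 1.33-fold (adjusted p = 0.00052), but its other probe set gave only 0.07. Prc1, which bundles the microtubules of the central spindle, read 0.07, 0.06, 0.11 and 0.03 in LAP cells, against −0.03, −0.12, −0.12 and −0.07 in control cells (0.16 ± 0.03, adjusted p = 0.00538). Racgap1, the other part of centralspindlin, rose by 0.1 ± 0.03 (adjusted p = 0.0182). Ect2, the exchange factor that activates RhoA at the cleavage furrow, differed by 0.04, the furrow protein Anln by −0.05, and the kinesin Kif20a by −0.07, and none of these passed.

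The spindle motors and spindle-binding proteins had 2 of 5 genes lower and none higher. The chromosome-bound kinesins Kif22 and Kif4 differed by −0.13 ± 0.03 and −0.11 ± 0.03 (adjusted p = 0.0055 and 0.0356). Nusap1, which binds spindle microtubules, read 0.01, −0.06, −0.01 and −0.14 in LAP cells, against −0.06, 0.33, 0.37 and 0.12 in control cells, and missed the test (−0.24 ± 0.09, adjusted p = 0.0819). Kif2c, a kinesin that shortens microtubules, and Hmmr, a spindle-assembly protein, each differed by −0.08 without passing. The other 4 probe sets of Hmmr gave 0.13 to 0.21, so its direction in the cell line is not settled.

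All 3 genes of chromosome structure and transcription fell. Top2a, which untangles sister chromatids, read −0.11, −0.17, −0.29 and −0.25 in LAP cells, against 0.11, 0.16, 0.2 and 0.18 in control cells, a difference of −0.37 ± 0.04 (adjusted p = 0.000263). Foxm1, the transcription factor of the G2/M programme, read −0.08, −0.16, −0.19 and 0.02 in LAP cells, against 0.17, −0.02, 0.26 and 0.16 in control cells; here the groups overlapped (−0.25 ± 0.06, adjusted p = 0.0226). Mki67, the proliferation marker Ki-67, differed by −0.09 ± 0.03 (adjusted p = 0.0385). Other probe sets gave −0.14 and 0.09 for Top2a and −0.13, −0.13 and 0.11 for Foxm1. The calls of Foxm1, Bub1, Aurkb, Kif4, Mki67, Ube2c and Racgap1 were each lost when some single arrays were left out, and the calls of the other 13 genes were not.

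Further genes of mitosis, their regulators and the DNA replication genes were read from lists drawn up with earlier results of these data known. Of 86 other mitosis genes, 9 rose and 24 fell in LAP cells, led by the centromere chaperone Hjurp (−0.42), the condensin subunit Ncapd2 (−0.29), Pimreg (−0.28) and Cenpm (−0.25). Of 24 regulators of the G2/M programme, 5 rose and 7 fell. Cdkn1a, the inhibitor p21, rose by 1.44 ± 0.08 (adjusted p = 1.85e-06), and Btg2, an antiproliferative gene, was lower (−0.69 ± 0.04, adjusted p = 1.81e-06). The repressors E2f7 and E2f8 (−0.36 and −0.27) were lower, and Rbl1, the pocket protein p107 of DREAM, was higher (0.28). Of 42 DNA replication genes 28 fell and 0 rose, with a median difference of −0.13; the largest were Prim2 (−0.41), Ccne1 (−0.36), Ccne2 (−0.35), Uhrf1 (−0.31) and Pole (−0.25). The shares called in these 3 lists were 38.4%, 50% and 66.7%, against 22.3% of all genes. Some marker genes of other stages and cell types moved in the same arrays. Of 10 B-lineage markers 4 fell and 1 rose, with Dntt and Rag1 at −1.91 and −1.32. The myeloid gene Lyz2 rose by 1.53, but only 1 of 7 monocyte and macrophage markers was called, with a median difference of 0.04. Of 8 granulocyte markers 1 rose and 1 fell, with a median of −0.03. Their part in the results on mitosis genes was not tested. By letters in the promoter, CHR stood in 7 of 7 genes that rose, in 9 of 9 that fell and in 8 of 12 that were not called.

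In the tumours the spread was wider. The median SD of the 34 genes was 0.35 over the 16 tumours, against 0.07 over the 8 cell-line arrays, and it was larger in the tumours for all 34. Over all genes these medians were 0.28 and 0.08, and 96.6% of genes varied more in the tumours. The genes also tended to go up and down together from tumour to tumour. The median correlation over the 561 gene pairs was 0.38 across the 16 tumours, and 86.8% of pairs were above 0, which is a description of tumours that differ in group and cell content. Correlation with the median of the other genes was highest for Cdk1 (0.95), Cdc20 (0.91) and Kif22 (0.9) and above 0.5 in 25 genes. It was lowest for Hmmr (−0.25), Cdc25b (−0.2), Mad2l1 (0.21), Ube2c (0.31) and Mki67 (0.34). For Hmmr this holds for the probe set used, which differed by 0.84 between LAP B-ALL and LAP/Blnk tumours. Its other probe sets differed by 0.85, −0.52, −0.46 and −0.4. The heat map shows some tumours as mostly red or mostly blue columns and others, such as LAP/Blnk 3 and LAP preB-ALL 4 with 16 of 34 genes above 0 each, as mixed.

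**Figure D2:**
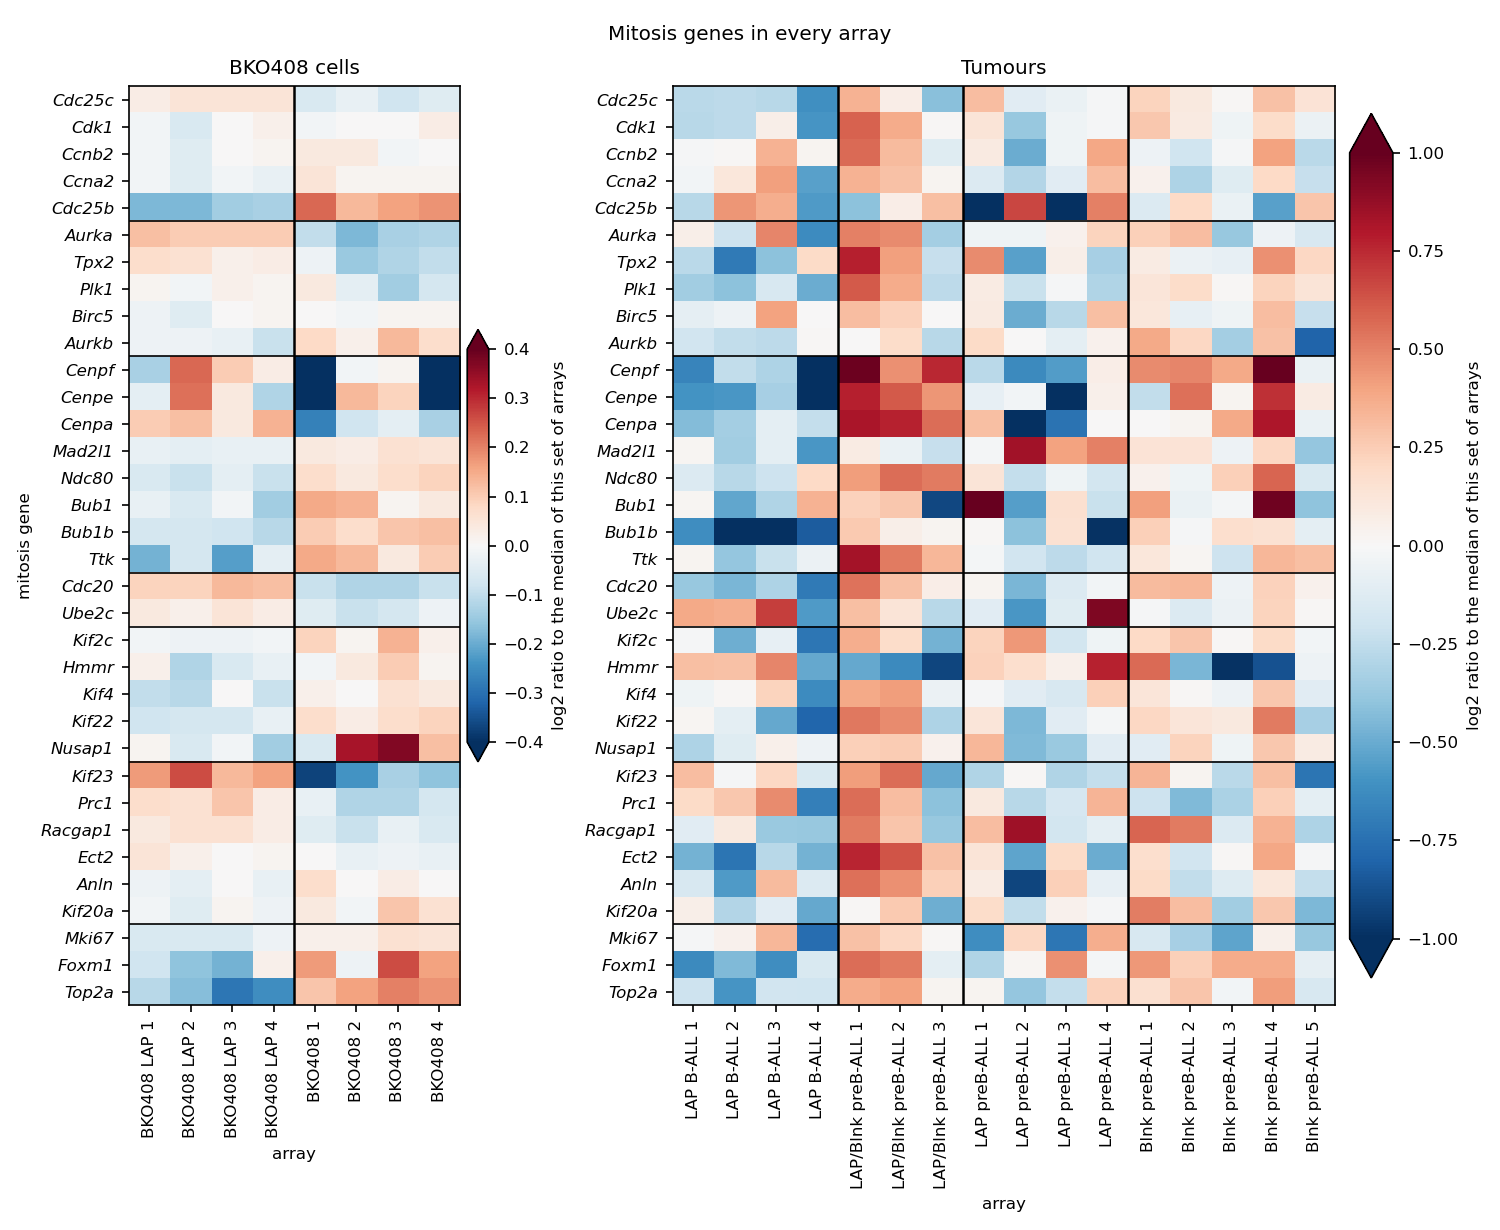
Values of the 34 mitosis genes (rows, ordered by role with lines between roles) in the 8 cell-line arrays (left) and the 16 tumours (right), as log2 ratio to the median of each set, red above and blue below, with a wider colour range for the tumours. LAP/Blnk 1 and 2 have 32 of 34 genes above 0 and the tumour labelled LAP B-ALL 4 has 5, while in the cell line single genes split by group.

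The median of the 34 genes was −0.12, −0.26, −0.1 and −0.51 in LAP B-ALL 1 to 4, 0.42, 0.32 and −0.08 in LAP/Blnk 1 to 3, 0.08, −0.27, −0.11 and −0.01 in LAP preB-ALL 1 to 4, and 0.17, 0.06, −0.05, 0.28 and −0.1 in Blnk tumours 1 to 5. LAP B-ALL was low in all 4 tumours and LAP/Blnk tumours were high in 2 of 3, while LAP/Blnk 3 lay within the range of the Blnk tumours and close to LAP B-ALL 1 and 3. The number of genes above 0 was 10, 9, 14 and 5 in LAP B-ALL, 32, 32 and 16 in LAP/Blnk tumours, 22, 8, 10 and 16 in LAP preB-ALL, and 26, 21, 11, 31 and 9 in Blnk tumours. In bulk samples such as these, fewer dividing cells and less of these RNAs per cell cannot be told apart.

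**Figure D3:**
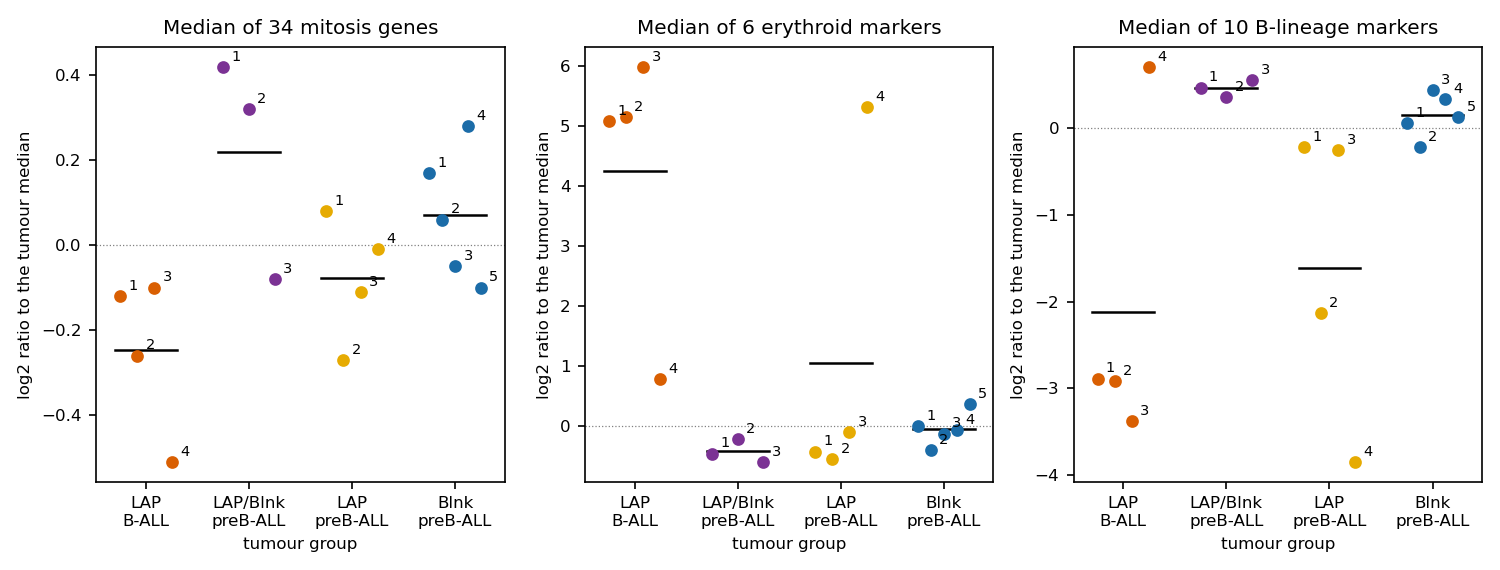
Median log2 ratio of the 34 mitosis genes (left), 6 erythroid markers (middle) and 10 B-lineage markers (right) in each tumour, by group, with tumour numbers beside the points and the group mean as a bar. LAP B-ALL 1 to 3 and LAP preB-ALL 4 are above 5 for the erythroid markers, whereas the tumour labelled LAP B-ALL 4, at 0.79, has the lowest median of the mitosis genes, −0.51.

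The 6 tumour comparisons share samples with one another, so they are not independent. LAP B-ALL had the most called genes when set against LAP/Blnk tumours. Of the 34 genes 6 were lower and 0 higher, 17.6% in all, against 3.52% of all genes called (1.32% higher and 2.21% lower). The median difference was −0.35, beside −0.01 over all genes, and 30 of the 34 differences were negative. Cenpf, Bub1b and Ttk are checkpoint or kinetochore genes. Cenpf read −0.66, −0.25, −0.31 and −1.69 in LAP B-ALL, against 0.98, 0.46 and 0.75 in LAP/Blnk tumours, a difference of −1.46 ± 0.32 (adjusted p = 0.026). Bub1b read −0.62, −1.02, −1.17 and −0.83 in LAP B-ALL, against 0.26, 0.06 and 0.03 in LAP/Blnk tumours (−1.03 ± 0.22, adjusted p = 0.0223). Ttk read 0.03, −0.39, −0.22 and −0.06 in LAP B-ALL, against 0.83, 0.52 and 0.33 in LAP/Blnk tumours (−0.72 ± 0.15, adjusted p = 0.0197). In each of the 3 every LAP B-ALL lay below every LAP/Blnk tumour. Other probe sets of these genes differed in the same direction, by −0.86 and −0.14 for Cenpf, −0.82 and −0.28 for Bub1b and −0.45 for Ttk.

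The other 3 called genes belong to anaphase, cytokinesis and transcription. Ect2 read −0.47, −0.73, −0.28 and −0.47 in LAP B-ALL, against 0.76, 0.63 and 0.29 in LAP/Blnk tumours (−1.05 ± 0.2, adjusted p = 0.0128). Cdc20 read −0.38, −0.46, −0.31 and −0.71 in LAP B-ALL, against 0.54, 0.29 and 0.07 in LAP/Blnk tumours (−0.77 ± 0.15, adjusted p = 0.0144). Foxm1 read −0.64, −0.44, −0.62 and −0.15 in LAP B-ALL, against 0.56, 0.52 and −0.1 in LAP/Blnk tumours (−0.79 ± 0.2, adjusted p = 0.0496). In all 3 the groups did not overlap, which is no further support in genes already picked by the test. For Foxm1 the tumour labelled LAP B-ALL 4 and LAP/Blnk 3 were only 0.05 apart.

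Genes near the threshold were Ndc80 (−0.61, adjusted p = 0.0571), Plk1 (−0.59, adjusted p = 0.0661) and Cdk1 (−0.59, adjusted p = 0.0678). Cenpe (−1.26 ± 0.38, adjusted p = 0.0811) and Cenpa (−0.99 ± 0.3, adjusted p = 0.078) were large but variable. Hmmr went the other way at 0.84 ± 0.34 (adjusted p = 0.168), but 3 of its other 4 probe sets gave −0.52 to −0.4. Kif23, the largest called rise in the cell line, differed by −0.07, Cdc25b by 0.0 and Mki67 by −0.27, with 95% intervals of −0.96 to 0.97 for Cdc25b and −0.87 to 0.34 for Mki67.

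**Figure D4:**
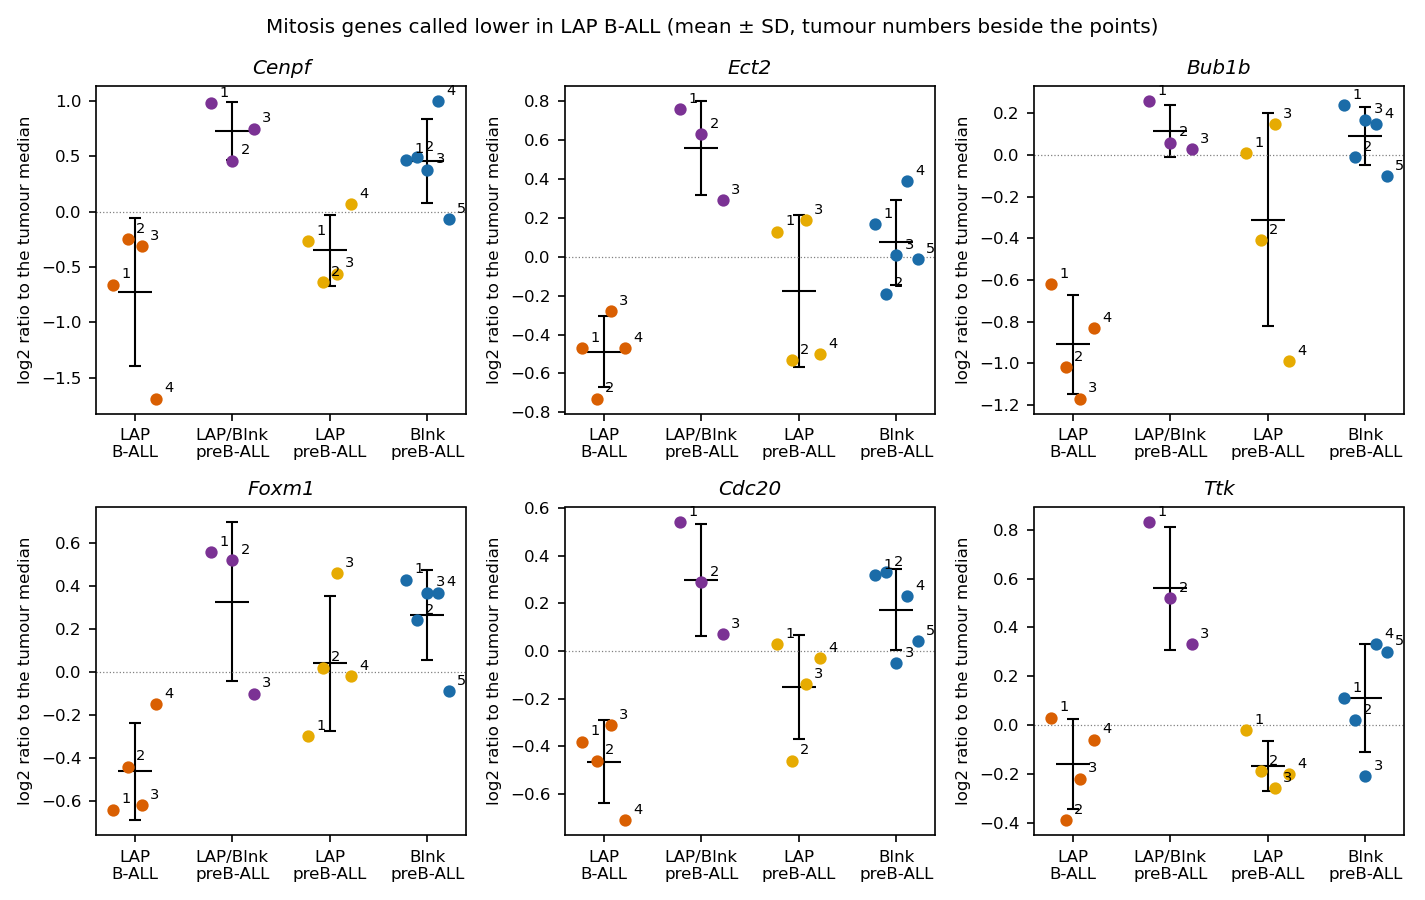
Log2 ratio of the 6 mitosis genes called lower in LAP B-ALL than in LAP/Blnk tumours, in each tumour by group, with mean and SD as bars and tumour numbers beside the points. In all 6 panels the LAP B-ALL points lie below the LAP/Blnk points, and for Bub1b LAP preB-ALL 4, at −0.99, lies among the LAP B-ALL.

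The number of genes called rested on particular tumours. Without LAP/Blnk 1 none of the 34 was called and without LAP/Blnk 2 only 1, while leaving out LAP B-ALL 2 or 3 left 3. The shares of all genes called were 1.46%, 1.6%, 1.6% and 1.57% in that order. Without LAP B-ALL 4 and LAP preB-ALL 4, 8 genes were lower and 1, Hmmr, higher, beside 14.6% of all genes called. Without all 3 tumours whose Vpreb1 went against the label, an alternative that leaves 2 LAP preB-ALL, 10 were lower and 1 higher, beside 18.5% of all genes. Without the 4 tumours high in erythroid markers, the tumour labelled LAP B-ALL 4 alone stands for its group and is assumed to vary like the others; then Cenpf alone was called (−2.43, adjusted p = 0.0172) and the median over the 34 genes was −0.61. Erythroid and B-lineage medians moved with this result, at 4.25 ± 2.34 and −2.12 ± 1.9 in LAP B-ALL, against −0.42 ± 0.19 and 0.46 ± 0.1 in LAP/Blnk tumours (SD, n = 4 and 3). The low mitosis median of the tumour labelled LAP B-ALL 4 was measured at an erythroid median of 0.79 and a B-lineage median of 0.71. The 8 of 9 granulocyte markers with a value had a median of 2.45 to 3.12 in LAP B-ALL, against −1.41 to 1.51 in LAP/Blnk tumours, and their part in the result was not tested.

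Against Blnk tumours, LAP B-ALL had 2 of the 34 genes lower and 0 higher, beside 1.45% of all genes called (0.48% higher and 0.971% lower). Bub1b read −0.62, −1.02, −1.17 and −0.83 in LAP B-ALL, against 0.24, −0.01, 0.17, 0.15 and −0.1 in Blnk tumours (−1.0 ± 0.19, adjusted p = 0.0254). Cdc20 read −0.38, −0.46, −0.31 and −0.71 in LAP B-ALL, against 0.32, 0.33, −0.05, 0.23 and 0.04 in Blnk tumours (−0.64 ± 0.13, adjusted p = 0.0312). For each gene every LAP B-ALL lay below every Blnk tumour. Cenpf, at −1.18 ± 0.28 (adjusted p = 0.0538), and Foxm1, at −0.73 ± 0.18 (adjusted p = 0.0575), missed the test narrowly, and Cenpe differed by −0.87 ± 0.33 (adjusted p = 0.154). The median over the 34 was −0.27, beside −0.03 over all genes, and 25 were negative. Markers of other cells moved with this comparison: the median difference was 4.38 over the 6 erythroid markers, 2.35 over the 8 granulocyte markers and −2.53 over the 10 B-lineage markers, and their part in the result was not tested. No mitosis gene was called when any of Blnk tumours 1, 2 or 4 or LAP B-ALL 1, 2 or 3 was left out. The shares of all genes called also fell, to 0.515%, 0.485%, 0.474%, 0.281%, 0.328% and 0.275% in that order. Without Blnk tumour 3, 1 gene was called, beside 0.714% of all genes. There were 4 called without LAP B-ALL 4, without Blnk tumour 5, or without LAP B-ALL 4 and LAP preB-ALL 4, beside 10.7%, 2.9% and 14% of all genes. Without the 3 tumours whose Vpreb1 went against the label 5 were lower and 1 higher, beside 18.1% of all genes. Without the 4 tumours high in erythroid markers only Cenpf was called (−2.15, adjusted p = 0.0314).

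Against LAP preB-ALL, LAP B-ALL had no mitosis gene called, nor any of the 17097 genes (0%); at an unadjusted p under 0.05 there were 6 of the 34 and 1886 of all genes. The largest differences were Mad2l1 (−0.68 ± 0.19, adjusted p = 0.35), Bub1b (−0.6 ± 0.2, adjusted p = 0.36) and Foxm1 (−0.5 ± 0.19, adjusted p = 0.391). Without LAP B-ALL 4 and LAP preB-ALL 4, Bub1b was lower (−0.86, adjusted p = 0.00965) and Ube2c higher (0.75, adjusted p = 0.0218), beside 6.76% of all genes called, and without LAP preB-ALL 4 alone 1 gene was lower, beside 1.7%. Without the 3 tumours whose Vpreb1 went against the label, Bub1b and Ect2 were lower and Cdc25b, Mki67 and Ube2c higher, beside 13.3% of all genes. Ube2c read 0.38, 0.36, 0.69 and −0.57 in LAP B-ALL, against −0.11, −0.58, −0.12 and 0.93 in LAP preB-ALL, so the tumour numbered 4 was the lowest of its group in LAP B-ALL and the highest in LAP preB-ALL.

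LAP/Blnk tumours, set against LAP preB-ALL, had 1 gene higher and 0 lower, beside 2.37% of all genes called (1.59% higher and 0.784% lower). That gene was Ttk, at 0.83, 0.52 and 0.33 in LAP/Blnk tumours, against −0.02, −0.19, −0.26 and −0.2 in LAP preB-ALL (0.73 ± 0.15, adjusted p = 0.0263). Cenpa (1.12 ± 0.3, adjusted p = 0.0694), Cenpf (1.09 ± 0.32, adjusted p = 0.0998) and Cenpe (1.07 ± 0.38, adjusted p = 0.164) had larger differences with wider errors and did not overlap between the groups. The median over the 34 was 0.31, beside −0.03 over all genes, and 26 were positive. Markers of other cells moved too: the median difference was 2.46 over the 10 B-lineage markers, −1.53 over the 6 erythroid markers and −0.17 over the 8 granulocyte markers. Their part in the result was not tested. Ttk was no longer called without LAP/Blnk 1, LAP/Blnk 2, LAP preB-ALL 3 or LAP preB-ALL 4. Without LAP preB-ALL 1, or without LAP B-ALL 4 and LAP preB-ALL 4, 2 genes were called, beside 1.39% and 2.74% of all genes. Without that pair these were Ttk (0.72, adjusted p = 0.0467) and Cenpf (1.23, adjusted p = 0.0221). Without the 3 tumours whose Vpreb1 went against the label, Cdc25b, Cenpf and Mki67 were higher and Ttk was not called, beside 4.19% of all genes. None was called without the 4 tumours high in erythroid markers, beside 0.866% of all genes.

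LAP/Blnk and Blnk tumours differ, by their labels, in the LAP transgene on a Blnk-deficient background, and their comparison called none of the 34 genes, beside 0.0175% of all genes. At an unadjusted p under 0.05 there were 3 of the 34 and 989 of all genes. The largest differences were Cenpa (0.49 ± 0.28, adjusted p = 0.965), Ect2 (0.48 ± 0.19, adjusted p = 0.754) and Anln (0.48 ± 0.24, adjusted p = 0.911). Ttk read 0.83, 0.52 and 0.33 in LAP/Blnk tumours, against 0.11, 0.02, −0.21, 0.33 and 0.3 in Blnk tumours. It differed by 0.45, with a 95% interval of 0.14 to 0.75 that is not adjusted for the number of genes. Ttk was not called here, and its calls between other tumour groups rest on the same LAP/Blnk tumours. The median over the 34 was 0.15, beside −0.02 over all genes, with 27 positive. In simulated data of this size 26% of changes of 0.5 and 56% of changes of 1 were recovered in this comparison. The changed genes were drawn from all genes, so these are not shares for the mitosis genes. In the simulation 46 of 50 changes of 2 were called, whereas the real comparison called 3 of all genes. The adjusted threshold was thus looser in the simulation, and recovery in the real comparison may be lower.

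LAP preB-ALL, set against Blnk tumours, had 0 genes called, beside 0.0819% of all genes (0.00585% higher and 0.076% lower), and 5 of the 34 at an unadjusted p under 0.05, beside 13.2% of all genes. Cenpf (−0.8 ± 0.28, adjusted p = 0.252), Cenpe (−0.69 ± 0.33, adjusted p = 0.392) and Hmmr (0.66 ± 0.3, adjusted p = 0.365) differed most. The median over the 34 was −0.13, beside 0.0 over all genes.

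Whether LAP acted differently in tumours and in cells of the line was tested by the difference between both LAP effects, in samples all labelled as lacking Blnk. The model gave cells and tumours a shared spread per gene. The median SD of the 34 genes was 0.07 over the cell-line arrays and 0.35 over the 16 tumours. Its SEs and p-values may therefore be too small. No mitosis gene was called, beside 1.05% of all genes (0.521% higher and 0.532% lower), and 8 of the 34 had an unadjusted p under 0.05, beside 13% of all genes. Ttk came closest (0.69 ± 0.17, adjusted p = 0.0714), since its difference with LAP was 0.45 in tumours and −0.24 in cells. Anln (0.53 ± 0.14, adjusted p = 0.0834) and Mki67 (0.53 ± 0.14, adjusted p = 0.0989) followed. Without Blnk tumour 4 there were 4 genes called higher (Ttk, Ndc80, Mki67 and Anln). Without LAP/Blnk 3 there were 2 (Ttk and Anln), and without Blnk tumour 1 or 5 there was 1. The shares of all genes called were 1.87%, 1.25%, 2.04% and 4.04% in that order.

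Of the 86 other mitosis genes, LAP B-ALL had 15 lower and 0 higher than LAP/Blnk tumours and 6 lower than Blnk tumours, while LAP/Blnk tumours had 4 higher than LAP preB-ALL. These are 17.4%, 6.98% and 4.65% of the list, beside 3.52%, 1.45% and 2.37% of all genes. Genes called in all 3 comparisons included Kif20b, a kinesin of cytokinesis (−2.91, −2.0 and 2.1 in these 3 comparisons), and Kif11, the kinesin that separates the spindle poles (−1.82, −0.95 and 1.57). Kif11 read −0.33, −0.28, −0.2 and −0.92 in LAP B-ALL and 1.4, 1.26 and 1.49 in LAP/Blnk tumours, against 0.63, 0.32, 0.74, 1.06 and −0.15 in Blnk tumours. The 5 largest of the 15 falls, Kif20b, Cep55, Kif11, Incenp and Cdca5, all lie on chromosome 19, where 5 of the 86 genes lie in all. The regulators had no gene called in any tumour comparison, and the DNA replication genes had 1, Pola2, lower in LAP B-ALL than in LAP/Blnk tumours (−1.48) and also on chromosome 19. None of the 34 genes is on that chromosome, so their values do not include it.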

How the data were processed

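Arrays of 8 cell-line and 16 tumour samples were labelled from 100 ng of total RNA, per the labels. The submitters' processing notes name MAS5 alone, without a version. The authors deposited log2 ratios (base assumed) for 45141 probe sets, each with a median of 0 over the cell-line arrays and over the tumours, as a check of the values showed; levels and detection calls are not used here. Any scaling before that affects every difference. Probe sets were named from a 2016 annotation table, in which 28898 had 1 gene symbol, 551 several and 15692 none, and placed on GRCm38.p6. For each gene the probe set of the largest SD around the means of both sets was kept. The comparisons used limma 3.58.1 in R 4.3.3 (lmFit, eBayes, no variance trend), two-sided, with Benjamini-Hochberg adjustment over 17097 genes and a threshold of 0.05. A model held the 8 cell-line arrays and a separate model all 16 tumours. The number of arrays limits the precision. On simulated data the cell-line test recovered 60% of changes of 0.25 and 98% of changes of 0.5. There only 50 genes of each size were changed among 17097, whereas 22.3% of all genes were called in the real cell-line arrays. The adjusted threshold was thus stricter in the simulation. The shares are not the recovery of the real test, nor that for the mitosis genes.

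The genes and lists were chosen with earlier results of these data known. Every measured gene is named, called genes are given in every comparison (where fewer than 3, also the 3 largest differences), of other lists at most 5, and promoters by the largest called rise per role where CHR letters lay in the printed stretch.
Alternatives were the mean of all probe sets, quantile normalization, centring of arrays, array weights, a variance trend, a filter on variability, other samples in the fit, a replicate block and leaving out each sample.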

Additional observations from a re-analysis of the deposited data

Results flagged for a closer look

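Single arrays that stood far from the rest of their group were sought in each group of 4 or 5, and 6 of 175 tests found one, where chance gives about 1 in 20. Cenpe read −1.79 in LAP preB-ALL 3, against −0.08 to 0.05 in the other LAP preB-ALL. Cdc25c read −0.61 in the tumour labelled LAP B-ALL 4, against −0.28 to −0.26 in the others of its group. Top2a read −0.59 in LAP B-ALL 2, against −0.21 to −0.19, and Ccnb2 read 0.35 in LAP B-ALL 3, against −0.01 to 0.03. In the cell line Aurka read 0.12 in LAP array 1, against 0.1 in each of the others, and Ccna2 read 0.05 in control array 1, against 0.01 in each of the others.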

How the results depend on the processing

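Over single genes, 774 values kept direction and side of the threshold under the alternatives, 134 lost a call and 31 gained one; none reversed. In the cell line the count of 20 called genes became 0 with all 24 arrays in the fit, which adds the wider spread of the tumours, and the median became −0.02 with the mean of probe sets. The share of all genes called fell from 22.3% to 0.123% with all 24 arrays in the fit. LAP/Blnk against LAP preB-ALL had 0 called genes with the mean of probe sets, with more variable genes only, with only the groups compared and without the erythroid-high tumours, and 2 without LAP B-ALL 4 and LAP preB-ALL 4. The shares of all genes called were 1.73%, 3.06%, 0.292%, 0.866% and 2.74% in that order. LAP B-ALL against LAP preB-ALL had 2 without LAP B-ALL 4 and LAP preB-ALL 4, beside 6.76% of all genes, and a median of −0.39 without the erythroid-high tumours. LAP B-ALL against Blnk tumours had 1 with quantile normalization, 10 with array weights and 5 with only the groups compared. The shares of all genes called were 1.34%, 21.2% and 2.4% in that order. This comparison had a median of −0.52 without the erythroid-high tumours. It had 4 called genes without LAP B-ALL 4 and LAP preB-ALL 4, beside 14% of all genes. LAP B-ALL against LAP/Blnk tumours had 3 with the mean of probe sets and 15 with array weights, beside 3.06% and 23.8% of all genes. Its median was −0.61 without the erythroid-high tumours. The difference of LAP effects had 4 with array weights, beside 4.8% of all genes. Without the 3 tumours whose Vpreb1 went against the label there were 3 for LAP/Blnk against LAP preB-ALL, and for LAP B-ALL 5 against LAP preB-ALL, 6 against Blnk tumours and 11 against LAP/Blnk tumours. The shares of all genes called were 4.19%, 13.3%, 18.1% and 18.5% in that order. The cause of these shifts was not tested. The tumours left out for erythroid or label conflict were chosen after seeing the data.

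Leaving out 1 array at a time gave 14 to 17 genes (median −0.06 to −0.04) in the cell line, 0 to 0 (0.08 to 0.31) for LAP/Blnk against Blnk tumours, 0 to 2 (0.2 to 0.45) against LAP preB-ALL, and 0 to 0 (−0.19 to −0.08) for LAP preB-ALL against Blnk tumours. The shares of all genes called were 18% to 20.6%, 0.0117% to 0.076%, 0.497% to 1.78% and 0% to 0.0994% in that order. For LAP B-ALL leaving out 1 array gave 0 to 1 (−0.21 to −0.07) against LAP preB-ALL, 0 to 4 (−0.38 to −0.21) against Blnk tumours and 0 to 7 (−0.58 to −0.23) against LAP/Blnk tumours, and for the difference of LAP effects 0 to 4 (0.1 to 0.29). The shares of all genes called were 0% to 1.7%, 0.275% to 10.7%, 1.44% to 11.6% and 0.439% to 4.04% in that order.

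Replicate numbers did not pair the samples: same-numbered samples had correlated deviations of −0.03 to 0.26 in the cell line and of −0.64 to 0.38 between tumour groups. With the replicate block 15 genes (6 higher, 9 lower) were called in the cell line, 0 for LAP/Blnk against LAP preB-ALL, 0 for LAP B-ALL against Blnk tumours, 10 for LAP B-ALL against LAP/Blnk tumours and 5 for the difference of LAP effects. The shares of all genes called with the block were 20%, 0%, 0%, 15.7% and 6.56% in that order. The same samples without the block gave 0, 5, 11 and 4 in these 4 tumour comparisons. The shares of all genes were then 0.193%, 3.77%, 20.9% and 5.4%.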
